A study of Mus musculus with 17 samples.

Results

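The genes described here are the cytochrome P450 genes of the mouse Cyp2 family, without the Cyp2c subfamily, and of the Cyp4 family, as measured by microarray in mouse colon. They were found by their gene names on the array, and 53 of 37074 gene names met the rule. The list takes in Cyp4x1os, an antisense transcript that encodes no P450, and Cyp2d13, which RefSeq lists as a transcribed pseudogene.

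Cytochromes P450 are haem enzymes of the endoplasmic reticulum that insert an oxygen atom into their substrate, with electrons delivered by the reductase Por. Cyp2 enzymes oxidise drugs, plant compounds and fatty acids, and Cyp4 enzymes hydroxylate the far end of fatty acids and of eicosanoids such as leukotriene B4. In liver, several of them are induced through nuclear receptors: Cyp2b10 through the constitutive androstane receptor Nr1i3 and the pregnane X receptor PXR (gene Nr1i2), and Cyp4a10 and Cyp4a14 through the fatty acid receptor Ppara.

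The 17 colon RNAs came from male C57Bl6/J mice in 4 groups. WT CONT (n = 4) received corn oil, and WT PCN (n = 4) received pregnenolone 16α-carbonitrile (PCN), an agonist of mouse PXR, by intraperitoneal injection at 100 mg/kg in corn oil each day for 4 days. Pxr-/- CONT (n = 5) and Pxr-/- PCN (n = 4) carried the PXR deletion and received the same 2 treatments, and all mice were killed 6 h after the last injection. WT mice were purchased at 6 weeks of age and acclimatised for 2 weeks, whereas Pxr-/- mice were bred in the study's own facility on a backcrossed background, so that genotype and colony of origin cannot be told apart. Each array was hybridised with 1 sample in 1 colour, and each had passed through one of 2 wash baths. All values below are log2 intensities after quantile normalisation, and a value is not comparable between probes.

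Some arrays stood apart or went against their labels. The array labelled WT PCN 4 and the one labelled Pxr-/- PCN 2 differed over the 53 genes with an SD of 0.110, and WT PCN 3 and Pxr-/- CONT 2 with an SD of 0.119, whereas the other 134 pairs of arrays ranged from 0.205 to 1.55. These 4 arrays lie in different groups, so results are given with and without them. Without them, WT PCN holds WT PCN 1 and 2 alone, and every comparison with that group rests on those arrays. The mean of 8 liver marker genes was 10.9 in WT CONT 5, 8.40 in WT PCN 1 and 8.35 in WT PCN 2, against 6.14 to 6.60 on the other 14 arrays. The mean of 8 pancreas marker genes was 17.4 in WT CONT 4, 15.2 in WT PCN 3, 15.2 in Pxr-/- CONT 2 and 11.2 in WT PCN 1, against at most 7.57 elsewhere. Markers of colonocytes (8 genes) and goblet cells (6 genes) were well above background on every array. Nr1i2 ranged from 11.97 to 12.31 in WT CONT, 11.10 to 12.44 in WT PCN, 10.39 to 11.61 in Pxr-/- CONT and 10.95 to 11.93 in Pxr-/- PCN. Whether its probe lies in the deleted part is not given in the sources used here, so these values do not check the labels.

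The probes are 60 bases long, and within a cluster of related genes it matters whether a probe can tell its own gene from the neighbours. Probes were compared only with each other, not with transcripts, so binding of a probe to a neighbour's transcript was not tested. Over the 1378 pairs of chosen probes none were identical, and 1 pair shared a run of 15 or more bases. That pair is Cyp2d9 and Cyp2d34, both on chromosome 15 within the Cyp2d cluster, and the capitals mark the 17 bases they share (positions in mm9, as the array annotation gives them, and probes 5′ to 3′).

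Cyp2d9, chr15:82285582-82285641, plus strand: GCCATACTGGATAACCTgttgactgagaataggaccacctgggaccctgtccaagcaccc

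Cyp2d34, chr15:82447966-82448025, minus strand: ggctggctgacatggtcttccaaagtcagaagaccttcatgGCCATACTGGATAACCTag

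The probes of Cyp2d10 and Cyp2d11, which are neighbours on the minus strand, share a run of 11 bases, again in capitals, at different positions in the probe. At the offset with most matches, without gaps, they match at 36 of 49 bases, against 24 of 56 for Cyp2d9 and Cyp2d34. The pair with the longest run was thus not the pair most alike.

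Cyp2d10, chr15:82233388-82233447, minus strand: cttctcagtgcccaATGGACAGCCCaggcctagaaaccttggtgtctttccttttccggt

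Cyp2d11, chr15:82219647-82219706, minus strand: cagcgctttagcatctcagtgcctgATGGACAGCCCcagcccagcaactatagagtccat

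The probe of Cyp2d12, the member with the largest difference in PCN response between genotypes among the 9 Cyp2d genes, covers 243 bases of genome with 60 bases and so crosses a splice junction.

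Cyp2d12, chr15:82388259-82388501, plus strand: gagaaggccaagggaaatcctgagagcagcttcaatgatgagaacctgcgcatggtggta

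The Cyp4f probes on chromosome 17 are shown for the 2 genes with the longest shared run among those the comparisons turn on, 11 bases in capitals. At the offset with most matches these 2 probes match at 37 of 51 bases.

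Cyp4f17, chr17:32665243-32665302, plus strand: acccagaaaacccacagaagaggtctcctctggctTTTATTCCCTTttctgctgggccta

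Cyp4f40, chr17:32812862-32812921, plus strand: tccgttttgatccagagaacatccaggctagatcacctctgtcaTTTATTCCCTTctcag

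Of the 53 genes, 28 were well above background on all 17 arrays, 16 on some arrays and 9 on none. The 9 Cyp2d genes, which lie within 419 kb of chromosome 15 (82201687 to 82620634), were all detected on every array. Cyp2e1 was detected on every array too. Of the 6 Cyp2j genes, whose enzymes epoxidise arachidonic acid, 4 were detected on every array (Cyp2j6, Cyp2j8, Cyp2j9 and Cyp2j13). Of the 10 Cyp4f and Cyp4v genes, 7 were, and of the 10 Cyp4a, Cyp4b and Cyp4x genes only Cyp4b1 and Cyp4x1 were. Of the 13 Cyp2a, 2b, 2f, 2g, 2s and 2t genes, which share 1356 kb of chromosome 7, Cyp2f2, Cyp2s1 and Cyp2t4 were detected throughout.

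**Figure D1:**
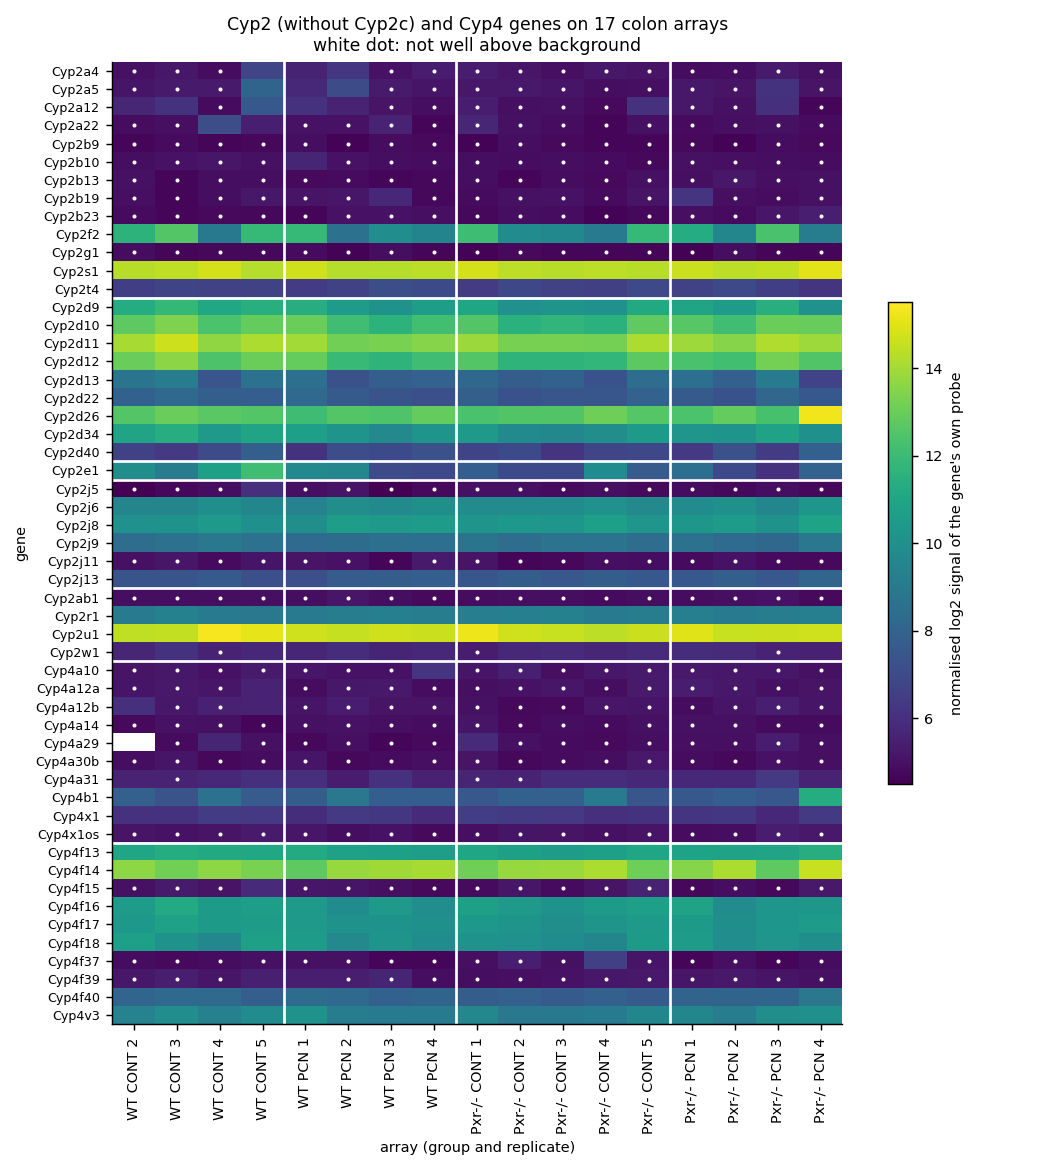
Levels of the 53 Cyp2 (non-2c) and Cyp4 genes (rows, by subfamily) on the 17 arrays (columns, by group), as log2 normalised intensity in colour; a white dot marks a probe not well above background on that array, and the blank cell is Cyp4a29 in WT CONT 2, whose spot was left out as an outlier. The 9 Cyp2d rows hold no dot, while most Cyp2b and Cyp4a rows hold dots nearly throughout.

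The genes known from liver as targets of inducers were at or near background in colon, PCN included. Cyp2b10, the classical phenobarbital-inducible gene, ranged from 4.74 to 5.63 and was well above background on 1 array, WT PCN 1. Cyp2b9 was well above background on none of the 17 arrays. Of its relatives, which were not chosen as inducer targets, Cyp2b13 and Cyp2b23 were well above background on none and Cyp2b19 on 2. Cyp4a14 ranged from 4.69 to 5.10 with no array well above background, and Cyp4a10 from 4.94 to 6.19 with 1 array, WT PCN 4. Cyp4a31 was the exception among the Cyp4a genes, well above background on 14 arrays, and its WT means were 5.73 ± 0.22 without PCN (SD, n = 4) and 5.74 ± 0.34 with PCN (n = 4). Its Pxr-/- means were 5.74 ± 0.15 (n = 5) and 5.86 ± 0.31 (n = 4). These 4 means lay within 1 SD of each other. For the 21 genes that were well above background on fewer than 4 arrays, values lay between 4.46 and 7.12 and no comparison was made.

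The 32 genes left were each tested, among 38703 probes in all, in a limma fit over the 17 arrays with the wash bath as a term. A gene was called at a Benjamini-Hochberg false discovery rate of 0.05 and a fold change above 1.5, the rule of the study's methods. In bulk tissue, fewer cells of a type and less RNA per cell cannot be told apart. The comparisons share control arrays, so their values are not independent.

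The Cyp2d genes are described first, whose mouse enzymes oxidise drugs and steroids. Cyp2d12 read 12.97, 13.59, 12.44 and 13.05 in WT CONT 2, 3, 4 and 5, and 12.92, 11.94, 11.66 and 12.13 in WT PCN 1 to 4. In Pxr-/- mice it read 12.54, 11.65, 11.67, 11.79 and 12.74 in CONT 1 to 5, and 12.34, 12.18, 13.19 and 12.50 in PCN 1 to 4. WT CONT was thus the highest group on average (13.01 ± 0.47, SD, n = 4), the other 3 group means lay between 12.08 and 12.55, and all groups overlapped. Cyp2d34 read 10.91, 11.33, 10.44 and 10.92 in WT CONT, 10.69, 10.20, 9.69 and 10.18 in WT PCN, 10.45, 9.71, 9.64, 9.95 and 10.51 in Pxr-/- CONT, and 10.25, 10.19, 10.84 and 10.01 in Pxr-/- PCN. WT CONT 3 was the highest array for both genes, and all groups overlapped again.

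Cyp2d11 read 14.07, 14.65, 13.69 and 14.13 in WT CONT, 13.99, 13.16, 13.29 and 13.52 in WT PCN, 13.86, 13.27, 13.24, 13.19 and 14.15 in Pxr-/- CONT, and 13.91, 13.52, 14.17 and 13.91 in Pxr-/- PCN. Cyp2d10 ranged from 12.38 to 13.39 in WT CONT, 11.60 to 13.02 in WT PCN, 11.51 to 12.83 in Pxr-/- CONT and 12.14 to 13.03 in Pxr-/- PCN. Cyp2d9 ranged from 11.09 to 11.81, 10.10 to 11.35, 10.05 to 11.17 and 10.08 to 11.46 in the same 4 groups. In each of these 5 genes, WT PCN 1 lay with the WT CONT arrays and above the other 3 WT PCN arrays, and Pxr-/- CONT 1 and 5 lay above Pxr-/- CONT 2, 3 and 4. WT PCN 1 and Pxr-/- CONT 1 and 5 were also the arrays of their groups on which Hoxb13, a homeobox gene known for its expression in the distal colon and chosen here after its values were seen, was high. On the 8 arrays with Hoxb13 between 15.63 and 16.09, Cyp2d12 lay between 12.34 and 13.59, Cyp2d11 between 13.86 and 14.65 and Cyp2d9 between 10.91 and 11.81. On the 9 arrays with Hoxb13 between 7.53 and 14.55, Cyp2d12 lay between 11.65 and 12.50, Cyp2d11 between 13.16 and 13.91 and Cyp2d9 between 10.05 and 11.09. The 8 arrays included 3 of 4 WT CONT, 1 of 4 WT PCN, 2 of 5 Pxr-/- CONT and 2 of 4 Pxr-/- PCN arrays, and a fit with Hoxb13 as a term is given with Cyp2f2.

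The other 4 Cyp2d genes had smaller differences or larger spread. Cyp2d22 had means of 7.95 ± 0.21 in WT CONT, 7.61 ± 0.46 in WT PCN, 7.58 ± 0.30 in Pxr-/- CONT and 7.63 ± 0.36 in Pxr-/- PCN, and Cyp2d40 ranged from 6.12 to 7.89 over all arrays. Cyp2d26 was measured by 2 probes that disagreed. The chosen probe read 15.25 on Pxr-/- PCN 4 and 12.06 to 13.05 on the other 16 arrays. The further probe read 12.82 on Pxr-/- PCN 4 and followed Cyp2d12, and its log2 fold changes were -0.66 with PCN in WT mice, 0.47 with PCN in Pxr-/- mice and -0.85 between the genotypes, where the chosen probe gave -0.17, 0.60 and -0.10. Over all genes with more than 1 tested probe (11 genes, 13 further probes), 7 further probes had the sign of the chosen probe in all 4 comparisons.

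**Figure D2:**
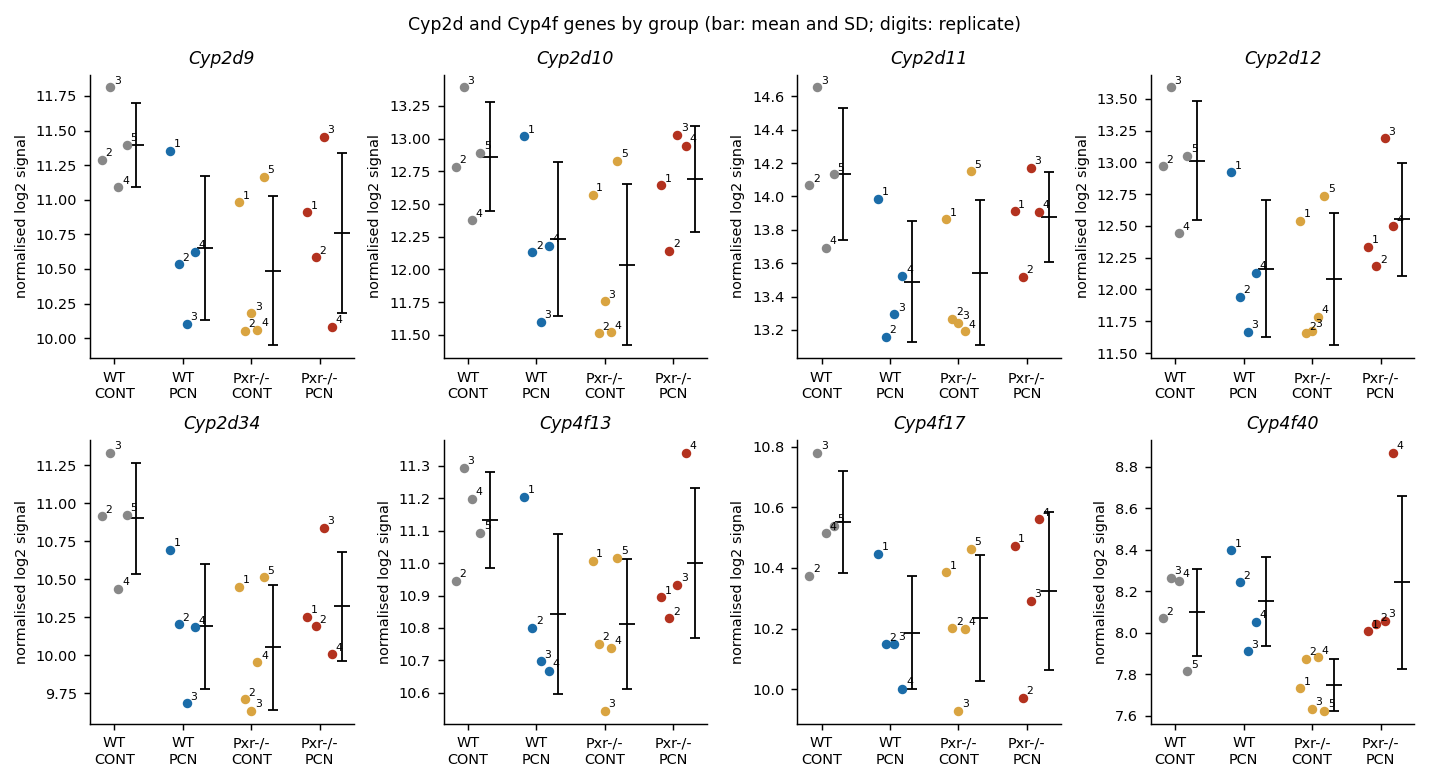
Log2 normalised intensity of 5 Cyp2d genes and 3 Cyp4f genes on each array (points, by group), with the group mean as a line and its SD as the error bar. WT CONT has the highest mean of the 4 groups for the Cyp2d genes, and Cyp4f40 in Pxr-/- PCN lies above Pxr-/- CONT on every array.

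In WT mice, the question was whether PCN changed the P450 genes where PXR is present. No member was called, with all arrays or without the 4 near-identical arrays, where 0% and 0.0491% of all probes were called. At an unadjusted p under 0.05, 6 of the 32 genes were lower with PCN and 0 higher (18.8% lower), against 2.17% of all probes lower and 2.49% higher. Without the 4 near-identical arrays, 1 gene was left, Cyp4f16. Of all 38703 probes, 1810 were then at that threshold in either direction, against 1803 with all arrays. In that fit WT PCN held only WT PCN 1 and 2, both with high liver markers, so it rests on fewer arrays. The 6 genes were Cyp2d34, Cyp2d12, Cyp2d11, Cyp4f16, Cyp4f17 and Cyp2e1, and the first 3 are members of the Cyp2d cluster that varied together over the arrays. Cyp2d34 had a log2 fold change of -0.70 ± 0.27 (SE, limma, adjusted p = 0.956), and -0.45 without the near-identical arrays. Cyp2d12 had -0.81 ± 0.33 (adjusted p = 0.956) and -0.58 without them. The median log2 fold change was -0.60 over the 9 Cyp2d genes, all of them below 0, -0.17 over the 32 genes and -0.00 over all probes.

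The wash baths gave different values, which were not tested against each other. In bath 1, with 2 WT CONT and 3 WT PCN arrays, the difference was -1.37 for Cyp2d12, -1.10 for Cyp2d34 and -1.03 for Cyp2d11. In bath 2, with 2 WT CONT arrays and WT PCN 1 alone, it was 0.17, 0.01 and 0.07. Leaving out single arrays moved the count of 6 genes to 1 without WT CONT 3, 11 without WT CONT 4, 10 without WT PCN 1, 3 without WT PCN 2, 2 without WT PCN 3 and 3 without WT PCN 4. The number of all 38703 probes at that threshold moved too, from 1803 with all arrays to 1440 without WT CONT 3, 3547 without WT CONT 4, 3154 without WT PCN 1, 1706 without WT PCN 2, 1658 without WT PCN 3 and 1544 without WT PCN 4.

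Cyp4f16 was the 1 gene whose WT groups did not overlap, against 1.29% of all probes lower without overlap and 1.36% higher. It read 10.52, 11.23, 10.48 and 10.61 in WT CONT and 10.41, 9.86, 10.41 and 9.91 in WT PCN. The gap between the groups was small next to the spread within them, and the log2 fold change was -0.51 ± 0.21 (limma, adjusted p = 0.956). A further Cyp4f16 probe gave a log2 fold change of -0.38. In Pxr-/- mice Cyp4f16 ranged from 10.13 to 10.75 in CONT and from 9.79 to 10.83 in PCN.

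In Pxr-/- mice, the same treatment was asked of tissue without PXR. No member was called with all arrays or without the near-identical ones, where 0.00517% and 0.0517% of all probes were called. At an unadjusted p under 0.05, 2 of the 32 genes were higher with PCN (6.25%) and 0 lower, against 3.4% of all probes higher and 3.95% lower. Those 2 genes were Cyp4f40 and Cyp2d10, and without the near-identical arrays 1 of them was left, Cyp4f40. All probes at that threshold in either direction numbered 2781 without these arrays, against 2846 with them. Cyp4f40 read 7.73, 7.88, 7.63, 7.88 and 7.62 in Pxr-/- CONT and 8.01, 8.04, 8.06 and 8.87 in Pxr-/- PCN. Every PCN array lay above every CONT array, and Pxr-/- PCN 4 lay far above the other 3. By the chosen probes, Cyp4f40 was the 1 gene without overlap here, against 1.38% of all probes higher and 1.42% lower. The log2 fold change was 0.51 ± 0.16 (limma, adjusted p = 0.509), and 0.59 without the near-identical arrays. Without Pxr-/- PCN 4 and WT CONT 5 the log2 fold change was 0.31. In WT mice the gene read 7.81 to 8.26 in CONT and 7.91 to 8.40 in PCN. A further probe of Cyp2j13, well above background on 6 arrays, read 5.59 to 5.76 in Pxr-/- CONT and 5.14 to 5.41 in Pxr-/- PCN. Its log2 fold change was -0.36 ± 0.08 (limma, adjusted p = 0.262), where the chosen Cyp2j13 probe gave 0.15, so the 2 probes disagreed.

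Cyp2d10 had a log2 fold change of 0.69 ± 0.31 in Pxr-/- mice (limma, adjusted p = 0.664), and 0.66 without the near-identical arrays. Cyp4v3, the mouse counterpart of the human gene mutated in Bietti crystalline dystrophy, had 0.47 ± 0.22 (adjusted p = 0.691). All 9 Cyp2d genes had a log2 fold change above 0 in Pxr-/- mice, with a median of 0.29, against 0.14 over the 32 genes and 0.01 over all probes. Leaving out 1 array at a time gave 1 to 4 genes higher at an unadjusted p under 0.05. The count was 4 without WT CONT 3, Pxr-/- CONT 1 or Pxr-/- PCN 1, and 1 without WT CONT 2 or 5, WT PCN 2 or 4, Pxr-/- CONT 2, 3 or 4, or Pxr-/- PCN 3 or 4. Over those settings 2247 to 3319 of all probes were at that threshold in either direction, against 2846 with all arrays.

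Between the genotypes without PCN, no member was called, with or without the near-identical arrays, where 0% and 0% of all probes were called. At an unadjusted p under 0.05, 9 of the 32 genes were lower in Pxr-/- CONT than in WT CONT and 0 higher (28.1% lower), against 6.52% of all probes lower and 6.17% higher. Without the near-identical arrays 7 genes were lower. Of all 38703 probes, 3899 were then at that threshold in either direction, against 4913 with all arrays. The 9 were Cyp2e1, Cyp2d34, Cyp2d12, Cyp2d9, Cyp2d10, Cyp2d11, Cyp4f13, Cyp4f17 and Cyp4f40. Cyp2d34 had a log2 fold change of -0.85 ± 0.25 (limma, adjusted p = 0.245), Cyp2d12 of -0.95 ± 0.31 (adjusted p = 0.275) and Cyp4f13 of -0.35 ± 0.11 (adjusted p = 0.268). Cyp4f13, a relative of the leukotriene B4 hydroxylases, read 10.95, 11.29, 11.20 and 11.09 in WT CONT and 11.01, 10.75, 10.54, 10.74 and 11.02 in Pxr-/- CONT. The groups overlapped by way of Pxr-/- CONT 1 and 5. A further Cyp4f13 probe, also well above background on all 17 arrays, gave 0.13 ± 0.18 for genotype and 0.05 ± 0.26 for the interaction, so the probes of this gene disagreed. By the chosen probes, no member had groups without overlap here, against 3.02% of all probes lower and 2.38% higher. Further probes of Cyp4f16 and Cyp2j13 did not overlap. That of Cyp4f16 read 7.86 to 8.28 in WT CONT and 7.35 to 7.79 in Pxr-/- CONT (log2 fold change -0.38). That of Cyp2j13, well above background on 6 arrays, read 5.36 to 5.54 and 5.59 to 5.76 (0.25). In bath 1 the genotype difference was -1.55 for Cyp2d12 and -1.33 for Cyp2d34, and in bath 2 it was -0.44 and -0.46. When arrays were weighted by their quality, 4 of these genes were called lower in Pxr-/- CONT (Cyp2e1, Cyp2d34, Cyp2d12 and Cyp2d9), where 1.35% of all probes were called.

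The test of the difference in PCN response between genotypes (Pxr-/- minus WT) called no member, with or without the near-identical arrays, where 0% and 0.00258% of all probes were called. At an unadjusted p under 0.05, 7 of the 32 genes had a higher value in Pxr-/- (21.9%) and 0 a lower one, against 2.43% and 2.95% of all probes. Without the near-identical arrays, and so with WT PCN 1 and 2 alone as WT PCN, 1 gene was left, Cyp4f17. All probes at that threshold in either direction fell in number as well, from 2081 to 1143. Cyp2d12 had an interaction of 1.30 ± 0.45 (limma, adjusted p = 0.848), and 1.05 without the near-identical arrays. The others were Cyp2d10 (1.23 ± 0.46), Cyp2d9 (0.99 ± 0.46), Cyp2d34 (0.97 ± 0.36), Cyp2d11 (0.95 ± 0.34), Cyp4f13 (0.44 ± 0.16) and Cyp4f17 (0.42 ± 0.16). Within the baths, the interaction of Cyp2d12 was 2.32 in bath 1 and -0.07 in bath 2. That of Cyp2d10 was 2.06 and 0.11, and that of Cyp4f13 0.64 and 0.14. Bath 2 holds WT PCN 1 as its single WT PCN array, and the baths were not tested against each other.

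**Figure D3:**
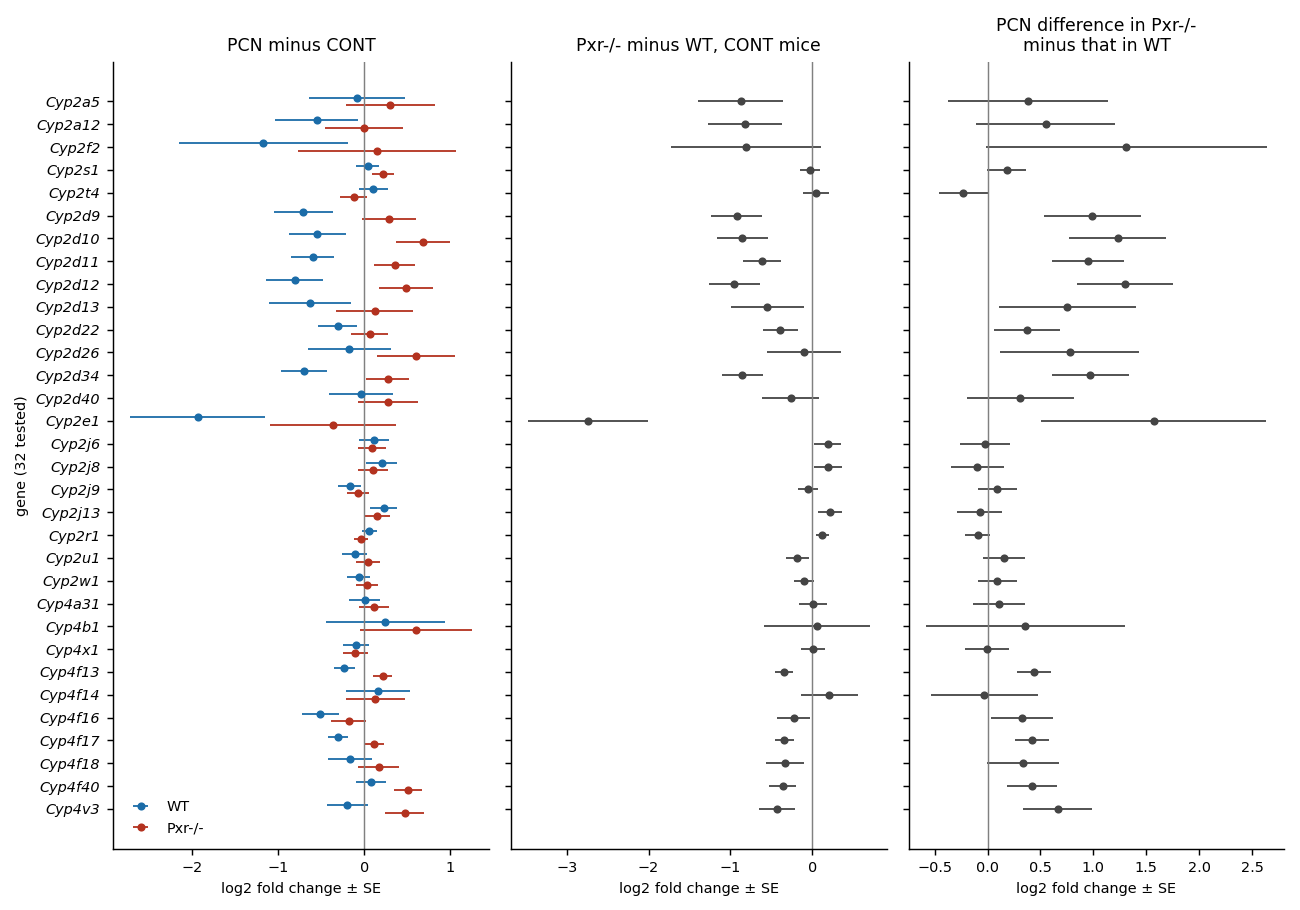
Log2 fold change (points) with its SE (bars) for the 32 genes tested, in 3 panels for PCN by genotype of mouse, Pxr-/- against WT without PCN, and the difference in PCN response. In the first panel the 9 Cyp2d genes lie below 0 in WT and above 0 in Pxr-/-; Cyp2a5 was not well above background on any Pxr-/- CONT array, so its values are fitted differences with no fold.

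Cyp2e1, the ethanol-oxidising P450 that is also known from liver and fat, had the widest range of the 53 genes, 6.06. It read 9.93, 9.17, 10.74 and 12.13 in WT CONT, 9.68, 9.59, 7.05 and 6.95 in WT PCN, 7.80, 6.95, 6.96, 9.86 and 7.64 in Pxr-/- CONT, and 8.51, 6.99, 6.07 and 7.95 in Pxr-/- PCN. WT CONT lay highest on average, and of the 9 Pxr-/- arrays Pxr-/- CONT 4 alone reached into its range. The genotype difference was -2.75 ± 0.73 (limma, adjusted p = 0.222), a level 6.70-fold lower in Pxr-/- CONT, and -2.43 without the near-identical arrays. The two-sided exact permutation p was 0.0238. It was -1.14 in bath 1 and -3.97 in bath 2, and -2.29 without Pxr-/- PCN 4 and WT CONT 5. For PCN in WT the log2 fold change was -1.93 ± 0.78 (limma, adjusted p = 0.956), and -0.86 without the near-identical arrays.

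Adipocyte markers moved with Cyp2e1. The mean of 5 such genes (Adipoq, Plin1, Cfd, Lep and Retn, 4 of them well above background on all arrays) was 8.69, 9.16, 10.23 and 10.31 in WT CONT, 8.91, 8.88, 7.74 and 7.32 in WT PCN, 8.10, 7.70, 7.97, 9.54 and 8.10 in Pxr-/- CONT, and 8.05, 7.56, 6.75 and 7.48 in Pxr-/- PCN. The 4 WT CONT arrays, WT PCN 1 and 2 and Pxr-/- CONT 4 were the 7 highest for the list and for Cyp2e1 alike, and Pxr-/- PCN 3 was the lowest for both. Adipoq itself, a defining adipocyte gene, ranged from 9.01 to 10.97 in WT CONT and from 7.59 to 10.15 in Pxr-/- CONT. The part of fat in the Cyp2e1 differences was not tested.

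Liver markers were high on the array with the highest Cyp2e1, WT CONT 5, where Alb read 12.68 against 5.16 to 9.50 on the other 16 arrays. The hepatic coumarin hydroxylase Cyp2a5 read 8.06 there and 7.03 on WT PCN 2, and 4.93 to 6.09 on the other 15 arrays. Cyp2a12 read 7.52 on WT CONT 5 and 4.63 to 6.12 elsewhere. Its next values were 6.12 on WT PCN 1, 6.11 on WT CONT 3, 6.09 on Pxr-/- CONT 5 and 6.01 on Pxr-/- PCN 3. Among those arrays WT PCN 1 alone had a high mean of the liver markers. Both genes were well above background on few arrays, Cyp2a5 on 1, 2, 0 and 1 and Cyp2a12 on 3, 2, 1 and 1 in WT CONT, WT PCN, Pxr-/- CONT and Pxr-/- PCN. The part of liver RNA in these values was not tested.

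**Figure D4:**
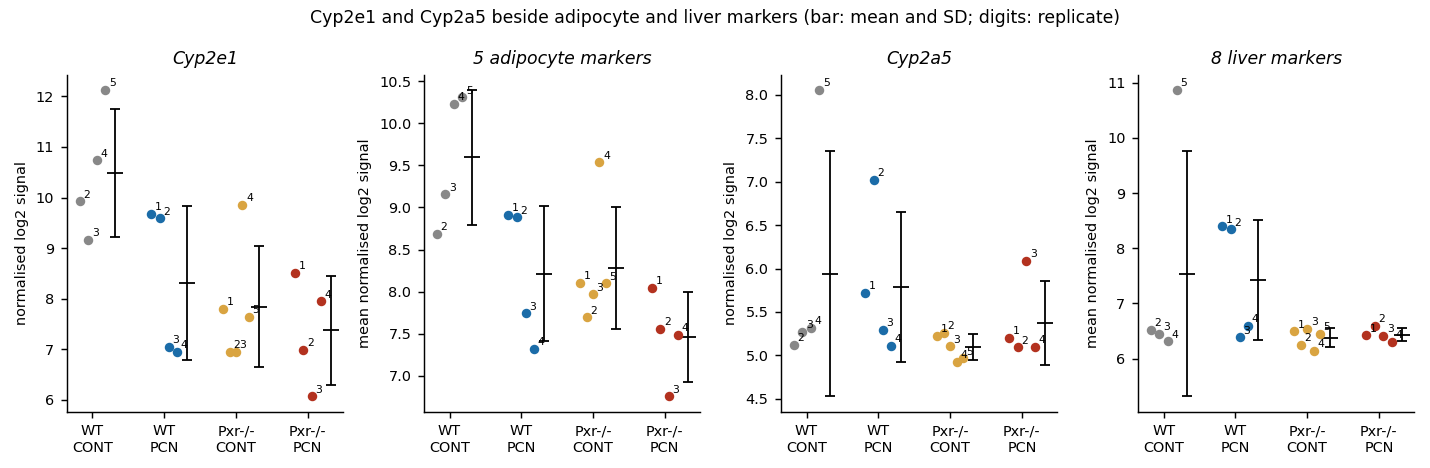
Log2 normalised intensity on each of the 17 arrays of Cyp2e1, the mean of 5 adipocyte markers, Cyp2a5 and the mean of 8 liver markers, by group. Cyp2e1 and the adipocyte mean are high on the same arrays, and Cyp2a5 and the liver mean are highest on WT CONT 5.

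Cyp2f2, known as the naphthalene-oxidising P450 of mouse airway and liver, split the arrays into a high and a low set, each with arrays of all 4 groups. It read 11.63, 12.56, 8.94 and 11.86 in WT CONT, 11.88, 8.65, 9.88 and 9.47 in WT PCN, 12.08, 9.80, 9.63, 9.05 and 11.86 in Pxr-/- CONT, and 11.32, 9.57, 12.34 and 9.10 in Pxr-/- PCN. It thus lay between 11.32 and 12.56 on 8 arrays and between 8.65 and 9.88 on the other 9, with 3 of 4, 1 of 4, 2 of 5 and 2 of 4 arrays on the high side in the 4 groups. No comparison between groups was past the threshold, with a log2 fold change of -1.17 ± 0.98 for PCN in WT (limma, adjusted p = 0.956) and 0.14 ± 0.92 in Pxr-/-.

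Hoxb13 separated the same arrays. It lay between 15.63 and 16.09 on the 8 arrays with high Cyp2f2 and between 7.53 and 14.55 on the other 9. Cyp2d13 lay between 8.22 and 9.15 on the 8 arrays and between 6.73 and 7.95 on the 9. Cdx2, an intestinal homeobox gene, ran the opposite way, with 11.77 to 14.05 on the 8 arrays and 14.19 to 14.67 on the 9, as did Ppara, with 9.86 to 10.55 and 10.80 to 12.69. Other colonocyte markers overlapped between the 8 and the 9 arrays. Car1 read 13.62 to 14.81 and 14.7 to 17.04, Car4 13.81 to 14.88 and 12.86 to 14.08, and Aqp8 16.17 to 16.56 and 13.10 to 16.64. The share of all probes that separate these arrays is not given here. The lowest Hoxb13, 7.53, was on Pxr-/- PCN 4. On that array Cyp4b1, a fatty acid hydroxylase, read 11.31 against 7.33 to 8.99 on the other 16, and Cyp4f40 and the chosen probe of Cyp2d26 had their highest values too. The part of the colon from which each piece came is not given in the sources used here, and its part in these differences was not tested.

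With the level of Hoxb13 as a further term, a fit added after the data were seen, no member was called in any comparison. Of all 38703 probes 0 were called in that fit too. The interaction of Cyp2d12 was 1.33 (limma, adjusted p = 0.597), against 1.30 without the term, and the log2 fold change for PCN in WT was -0.71. The term was linear, and Hoxb13 read 7.53 on Pxr-/- PCN 4 against 12.88 to 16.09 on the other arrays, so that array weighs heavily on it. The split into arrays with high and low Hoxb13 was not entered as a term, and its part in the Cyp2d differences was not tested.

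**Figure D5:**
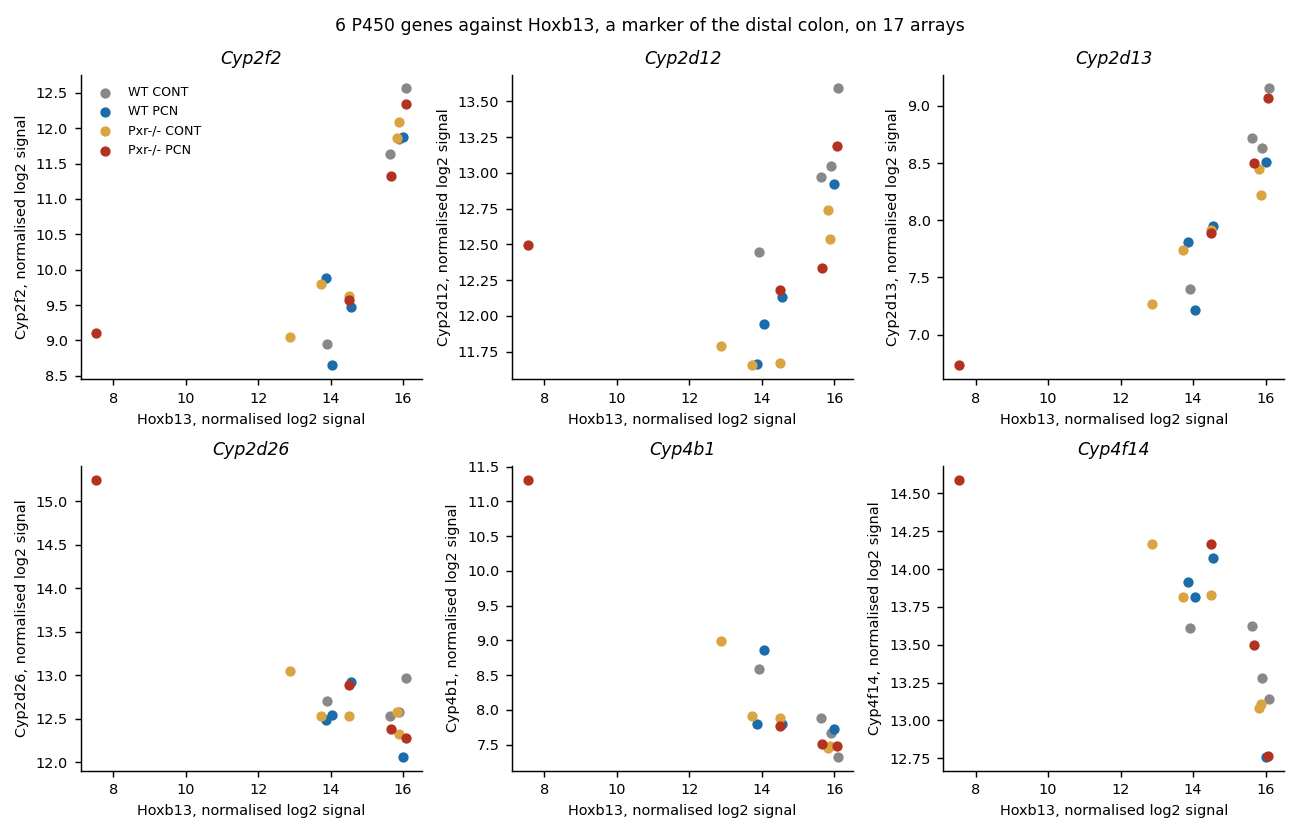
Log2 normalised intensity of 6 P450 genes (y axis) against that of Hoxb13 (x axis) on the 17 arrays, coloured by group. Cyp2f2 and Cyp2d13 are high on the 8 arrays with Hoxb13 above 15.6, and the array at a Hoxb13 of 7.53, Pxr-/- PCN 4, is the highest for Cyp4b1 and Cyp2d26.

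The other members varied little. Cyp2r1, a vitamin D 25-hydroxylase, had the smallest range of the 28 genes detected on every array, 8.91 to 9.34, with means of 9.08 ± 0.17 in WT CONT, 9.15 ± 0.08 in WT PCN, 9.20 ± 0.09 in Pxr-/- CONT and 9.17 ± 0.07 in Pxr-/- PCN. Cyp2s1, an epithelial P450 inducible through the Ah receptor, ranged from 14.27 to 15.05, and Cyp2u1, a fatty acid hydroxylase, from 14.42 to 15.33. Among the Cyp2j genes, Cyp2j6 ranged from 9.36 to 10.28, Cyp2j8 from 9.94 to 10.88, Cyp2j9 from 8.20 to 8.92 and Cyp2j13 from 7.19 to 8.08. Cyp2t4 ranged from 6.16 to 7.13 and Cyp4x1 from 5.72 to 6.49. None of these 9 genes spanned more than 0.97 over the 17 arrays, group differences included.

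Cyp4f14, a leukotriene B4 hydroxylase, ranged more widely, from 12.76 to 14.59, with means of 13.41 ± 0.24 in WT CONT, 13.64 ± 0.60 in WT PCN, 13.60 ± 0.48 in Pxr-/- CONT and 13.76 ± 0.80 in Pxr-/- PCN. Cyp4f18, known from neutrophils, had means of 10.32 ± 0.53, 10.08 ± 0.39, 10.01 ± 0.35 and 10.16 ± 0.29 in the same groups. The group means of each gene differed by less than its largest SD. Cyp2w1, known as a P450 of the developing and transformed colon, was well above background on 14 arrays and ranged from 5.35 to 6.13.

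The genes that serve these enzymes were taken from a list of 19 redox partners, epoxide hydrolases, nuclear receptors and haem enzymes, of which 18 were tested. None was called in any of the 4 comparisons, with or without the near-identical arrays. At an unadjusted p under 0.05, 3 were higher with PCN in WT (Alas1, the rate-limiting enzyme of haem synthesis, 0.72; Hmox1, which degrades haem, 0.67; Pparg, 0.54) and 0 lower, against 2.49% of all probes higher and 2.17% lower. In Pxr-/- mice 2 were higher (Hmox1, 0.83; the epoxide hydrolase Ephx2, 0.31) and 0 lower, against 3.4% and 3.95%. Between the genotypes 1 was higher (Cyb5b, 0.33) and 2 lower (Nr1i2, -1.06; Ephx2, -0.32), against 6.17% and 6.52%. The interaction was higher for 1 gene, Nr1i2, and lower for 1, Alas1, at -0.78, against 2.43% and 2.95%.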

How the data were processed

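The authors hybridised colon RNA to 1-colour Agilent 8x60K mouse arrays and deposited, per array, the scanner's spot intensity values made with Agilent Feature Extraction 10.10.1.1, and a log2 table of 36695 probes. The study's methods, written for liver arrays of the same mouse groups, filter the log2 values, correct them for the wash bath and normalise with CrossNorm, and the deposited log2 table is taken to follow them. CrossNorm was not repeated here. Here log2 median intensities were quantile normalised, outlier spots were left out, and spots of a probe were averaged (59305 spots, 56605 probes). Probes well above background on at least 4 arrays (38703) were fitted with limma 3.58.1 in R 4.3.3, with the 4 groups and the wash bath as terms, and Benjamini-Hochberg adjustment over all of them. A gene with several probes is represented by the one with the highest mean in the deposited table or, failing that, on the arrays. Saturated spots numbered 0, 62.7% to 71.0% of spots per array were well above background, and the number of arrays limits the precision. P-values measure only the spread between these samples. Genes named are those detected on all arrays, the 5 with the smallest p in each comparison, the 6 with the largest range, and Cyp2b9, Cyp2b10, Cyp4a10, Cyp4a14 and Cyp4a31; Cyp2b13, Cyp2b19, Cyp2b23 and Cyp2w1 were added after their values were seen. The members and gene lists were chosen with earlier results of these data known. RefSeq accessions matched 49 of the 53 genes. On data simulated from these arrays, of 100 probes (among 38646) changed by 1 log2 unit, 81% were called in the test of PCN in WT mice, 87% in that of PCN in Pxr-/- mice, 88% in that of genotype and 64% in that of the interaction. The simulation drew the noise of each probe independently, with no bath effect and no difference shared between probes on an array. It also changed a further 100 probes by 2 log2 units. These shares thus may not hold for the real arrays. Alternatives changed the normalisation, background correction, probe choice, filter, blocks and arrays included.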

Additional observations from a re-analysis of the deposited data

Results flagged for a closer look

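Within groups of 4 or 5 arrays, 10 values lay far from the others of their group by Dixon's criterion, among 140 groups of values checked, of which chance gives about 1 in 20. Cyp2a5 read 8.06 in WT CONT 5, against 5.12 to 5.31 on the other WT CONT arrays, and 6.09 in Pxr-/- PCN 3, against 5.09 to 5.20. Cyp4b1 read 8.86 in WT PCN 2, against 7.73 to 7.80, and 11.3 in Pxr-/- PCN 4, against 7.48 to 7.78. Cyp4f40 read 8.87 in Pxr-/- PCN 4, against 8.01 to 8.06. Cyp4v3 read 10.1 in WT PCN 1, against 8.98 to 9.17, and Cyp4a10 read 6.19 in WT PCN 4, against 5.05 to 5.19. Cyp2j13 read 7.20 in WT PCN 1, against 7.72 to 7.79, Cyp2j6 read 9.96 in WT CONT 4, against 9.52 to 9.57, and Cyp2s1 read 14.8 in Pxr-/- CONT 1, against 14.3 to 14.4.

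For Cyp2d12, every WT PCN array lay below the WT CONT mean and every Pxr-/- PCN array above the Pxr-/- CONT mean. The difference in PCN response was 1.30 on the log2 scale, which was not past the threshold (limma, adjusted p = 0.848).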

How the results depend on the processing

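Over 35 alternatives for each of the 4 comparisons, the number of members called was 0 throughout except for genotype in CONT with array weights, where 4 were called, all lower in Pxr-/- CONT. These were Cyp2e1 (-3.04, adjusted p = 0.0227), Cyp2d34 (-0.94, adjusted p = 0.0225), Cyp2d12 (-1.02, adjusted p = 0.0309) and Cyp2d9 (-0.94, adjusted p = 0.0365), where 1.35% of all probes were called. The weights ranged from 0.45 for WT CONT 4 to 2.37 for WT CONT 2, and the cause was not tested. Leaving out 1 array at a time gave 0 members called in each comparison, where 0 to 26 of all 38703 probes were called. Of the 20 named log2 fold changes, none turned its direction. These 20 had been picked for the smallest p in each comparison of the same data, so this says little about the other members. Over all 32 members tested, the fewest that kept their direction in an alternative were 26 for PCN in WT and 24 for PCN in Pxr-/-. For genotype in CONT and for the interaction the fewest were 26 and 26. Replicate numbers shared between groups were not taken to pair the arrays, and whether they do was not tested. The 22 pairs of arrays with the same number had correlations of deviations from -0.33 to 0.49, with 11 above 0.1. With the replicate number as a block, 0 members and 0 of all probes were called in each comparison. The smallest adjusted p of a member was 0.557, 0.553, 0.196 and 0.482 for PCN in WT, PCN in Pxr-/-, genotype and interaction. Of all probes, 3207, 2867, 6279 and 3910 were then at an unadjusted p under 0.05, against 1803, 2846, 4913 and 2081 without the block. With the 8 slides as a fixed block, the members at an unadjusted p under 0.05 fell in number from 6, 2, 9 and 7 to 1 in each of these comparisons (smallest adjusted p 0.759). All probes at that threshold fell as well, to 1437, 2061, 2500 and 1787. With the slides as a random block the members numbered 6, 2, 9 and 7 (smallest adjusted p 0.217), and all probes 1663, 2735, 5050 and 1972. Genes near background have only bounds on their level.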
